A study of Homo sapiens with 72 samples.

Results

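The MYC locus was taken as MYC, PVT1 and CCDC26 together with the stretch of chromosome 8 from 1 Mb before MYC to 2 Mb after it, which is chr8:126735434-129742951 on hg38. The genes and the stretch were fixed by name and position in GENCODE release 44. Within it the members were all peaks of 3 histone marks, and a peak was selected on a measured value, the coverage that the authors' caller SEACR scored in that library. Peak presence is therefore a description here. There were 391 such peaks of 962804 in the whole series.

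In Cut&Tag an antibody against a histone mark tethers Tn5, which cuts and tags the DNA nearby for sequencing. H3K4me3 marks active gene starts, H3K4me2 marks starts and distal regulatory elements, and H3K27me3 is laid down by the Polycomb complexes over silent genes. MYC is a transcription factor that drives growth and division, PVT1 is a long non-coding RNA gene downstream of it, and CCDC26 is a long non-coding RNA gene farther on. In B-cell tumours the region is known for translocations that place MYC beside an immunoglobulin enhancer and for distal enhancers that lie in the gene-poor stretches on both sides of MYC.

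All 3 lines, each an established human line, were profiled without treatment and after exposure to 1 nM bryostatin, a protein kinase C modulator. The labels give the exposure as overnight, whereas the paper states a full day before Cut&Tag. No other agent or allele was added. Raji is an Epstein-Barr virus-positive Burkitt lymphoma line that carries a MYC translocation, and REH and NALM6 are precursor-B leukaemia lines. Each line, treatment and mark had 3 libraries, 54 in all, and each line is a single cell line, so a difference between lines is not a difference between diseases. The labels do not say that replicates were separate cultures, so p-values measure the spread between these libraries only.

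The 48 libraries scaled in RPKM, the coverage per kilobase and per 1 M mapped reads, held 5.12 M to 47.9 M mapped reads with a median of 18.8 M. The 6 NALM6 libraries of replicate 1 carried another, unstated scale and shorter peaks, and the fitted differences at the MYC start are also given without them. One further library went against its label. The library labelled Raji untreated H3K27me3 replicate 2 had a peak over 99.6% of the 3505 regions that carried H3K4me3 in all 18 libraries of that mark, whereas the other 17 H3K27me3 libraries covered 0.114% to 14.4% of them. H3K4me3 stood at the starts of PAX5, EBF1 and CD79B, which define B cells, in all 18 libraries. At CD2, CD3D, CD3E, CD3G and TRAT1, which mark T cells, it was found in none. Of 5 genes that mark precursor B cells, DNTT and IGLL1 had it in 5 and 6 of 6 NALM6 libraries, in 6 and 6 of 6 REH libraries and in none of Raji. RAG2 had it in 4 NALM6, 6 REH and 0 Raji libraries. RAG1 had it in 6 of 6 libraries of every line, Raji included, and VPREB1 in 6 NALM6 libraries but in 0 of REH and 0 of Raji.

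MYC (ENSG00000136997.22) lies on the plus strand from 127735434 to 127742951. PVT1 (ENSG00000249859.14) starts 59.1 kb after the MYC start, also on the plus strand, and ends at 128187101. CCDC26 (ENSG00000229140.12) is read from the minus strand between 128634199 and 129683770, so its annotated start is 1948 kb from that of MYC. The stretch holds 36 annotated genes, of which 2 are protein coding and 18 are long non-coding RNA genes. H3K4me3 lay within 1 kb of an annotated start of 7 of these genes in at least 1 library and of 29 in none. MYC, PVT1, the antisense gene CASC11 whose start lies inside the MYC region, and the microRNA gene MIR1204 inside the PVT1 region were the only 4 with H3K4me3 in at least 9 of the 18 libraries. The marks of CASC11 and MYC, and of MIR1204 and PVT1, cannot be told apart in these peaks.

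The H3K4me3 region over the MYC start was called in all 18 libraries and reached between 3.77 and 7.28 kb past the start. It is plotted with the other start regions by library. Signals are totals over the called length, given as multiples of the median total of the regions that carry the mark in all 18 libraries. In untreated Raji the MYC region read 1.51, 1.57 and 1.58. In untreated REH it read 2.44, 2.37 and 2.22. In untreated NALM6 it read 2.32, 3.86 and 3.11. Every untreated Raji library lay below every untreated library of the leukaemia lines, while REH and NALM6 overlapped on this scale, though not on that of the fit, which centres on the libraries compared. Within each library this put MYC at percentile 79.2 to 82.0 of the 3505 regions in untreated Raji, 94.2 to 97.2 in untreated REH and 86.7 to 99.5 in untreated NALM6. A total grows with called length, and the median common region was 1124 to 3250 bp long in the untreated libraries. By maximum signal MYC read 1776, 1268 and 1541 in untreated Raji, against library medians of 3085, 2332 and 2411. Untreated REH gave 2052, 2093 and 2211, against 2469, 2433 and 2752. Untreated NALM6 gave 168, 3412 and 2573, against 211, 2769 and 2804.

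**Figure D1:**
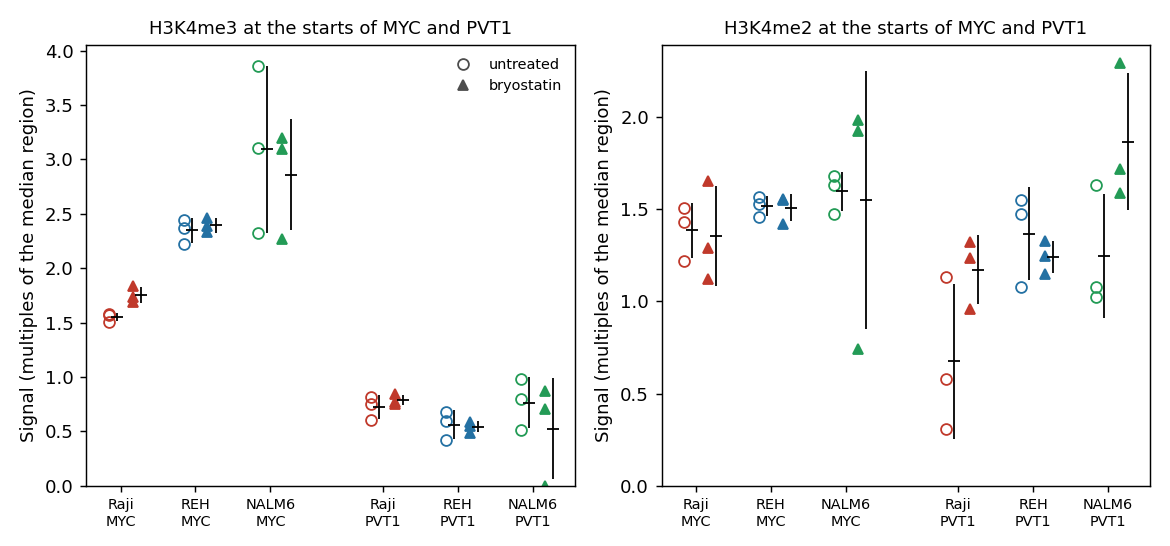
Signal of the regions over the MYC and PVT1 starts (vertical axis, multiples of the median region of the library) for H3K4me3 on the left and H3K4me2 on the right. Open circles are untreated and filled triangles bryostatin-treated libraries, with black bars for the mean ± SD of 3 libraries. The untreated Raji circles for H3K4me3 at MYC sit at 1.51 to 1.58, below all those of REH and NALM6.

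In the limma fit across all regions, the H3K4me3 region of MYC was lower in Raji than in REH by a log2 difference of -0.60 (SE 0.07, Benjamini-Hochberg adjusted p = 8.2e-05), with the groups apart. The adjusted p stayed at or below 0.0316 over 15 alternatives. The same fit called 51.3% of 6729 regions, so a difference at 1 region between these lines is common. Against NALM6 the log2 difference was -1.03 (SE 0.18, limma adjusted p = 0.0076, 20.2% of 5148 regions called). The difference was -0.77 with the maximum signal, -0.64 with the mean signal per base and -0.89 with quantile normalization, where the limma adjusted p rose to 0.0544, 0.162 and 0.0551. Without centring it read 0.14 (limma adjusted p = 0.950), a setting that moves every region of this comparison by 1.17 and in which NALM6 replicate 1 enters on its own scale. Without NALM6 replicate 1 it was -1.24 (limma adjusted p = 4.14e-05). The share of all regions called without that replicate is not given here, so this p is not set against it. NALM6 minus REH came to 0.44 (SE 0.18, limma adjusted p = 0.214, 7.15% of 5089 regions called). Without NALM6 replicate 1 the latter was 0.63 with a limma adjusted p of 0.000608, and 2 regions of the stretch then passed in place of 0. That fit also called a larger share of all regions, which is given with the PVT1 start below. Raji was thus lower than REH under each alternative tried, and lower than NALM6 under each except no centring.

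The domain was wide in each line. Its called length was 6410 to 8210 bp in Raji, 5050 to 7160 bp in REH and 4090 to 8780 bp in NALM6. The lower total in Raji therefore came with a called length that was not shorter than in REH. The highest H3K4me3 signal lay a median of 2.31 kb after the MYC start in Raji, 2.75 kb in REH and 2.77 kb in NALM6, inside the gene, although in 1 Raji library it lay at -0.178 kb. The highest H3K4me2 signal lay just before the start, at a median of -0.159, -0.169 and -0.174 kb in the same order.

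H3K4me2 over the MYC start was called between no lines. It read 1.43, 1.22 and 1.51 in untreated Raji, 1.57, 1.53 and 1.46 in untreated REH and 1.63, 1.68 and 1.48 in untreated NALM6. The groups overlapped on this scale, while on that of each fit Raji lay below both other lines. Raji minus REH was -0.23 on the log2 scale (SE 0.11, limma adjusted p = 0.115, 46.8% of 7999 regions called), and it was -0.66 with an adjusted p of 0.0161 when only peaks above the library's median signal were used. Raji minus NALM6 was -0.26 (limma adjusted p = 0.352, 18.9% of 4093 regions called) and NALM6 minus REH was 0.08 (adjusted p = 0.754, 11.4% of 4902 regions called). Without centring these 2 differences read 0.91 and -1.39, with limma adjusted p values of 0.814 and 0.64. Without NALM6 replicate 1 they read -0.30 and 0.09 (limma adjusted p = 0.122 and 0.535).

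The start of PVT1 carried both marks at a lower level than MYC in H3K4me3. The H3K4me3 region there read 0.603, 0.813 and 0.754 in untreated Raji, 0.675, 0.595 and 0.417 in untreated REH and 0.512, 0.980 and 0.797 in untreated NALM6. The lines overlapped, and none of the limma tests between untreated lines called it (adjusted p = 0.0819 for Raji against REH, 0.768 for Raji against NALM6 and 0.305 for NALM6 against REH). It was called under 3 alternatives. Raji minus REH was 0.38, and 0.52 without REH replicate 1 and 0.49 without Raji replicate 1 (limma adjusted p = 0.0353 and 0.0295). NALM6 minus REH was 0.49, and 0.75 without NALM6 replicate 1 (limma adjusted p = 0.00360, 44.7% of 7033 regions called).

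For H3K4me2 the PVT1 start read 0.579, 0.310 and 1.13 in untreated Raji and 1.48, 1.55 and 1.08 in untreated REH. In untreated NALM6 it read 1.03, 1.63 and 1.08. Raji was below REH by a log2 difference of -1.29 (SE 0.32, limma adjusted p = 0.0053), 1 of 2 H3K4me2 regions tested in the stretch, in the fit that called 46.8% of all regions, so the count is near the background share. With the maximum signal it was -0.94 (limma adjusted p = 0.000264) and with the mean signal -0.73 (adjusted p = 0.0107). On the scale of the plot the groups overlapped, because Raji replicate 3 read 1.13 and REH replicate 3 read 1.08, and on the scale of the fit, which centres on the 6 libraries compared, they did not. Called length moved with it: 3200, 1060 and 8180 bp in Raji and 8110, 6910 and 3660 bp in REH. So did depth, with 8.31 M, 6.70 M and 13.9 M mapped reads in Raji and 18.8 M, 15.4 M and 13.7 M in REH. Their part in the result was not tested. Raji minus NALM6 was -1.10 (limma adjusted p = 0.117), and -1.45 with the maximum signal (adjusted p = 0.00289). It was -1.28 without NALM6 replicate 1 (limma adjusted p = 0.0250, 32.9% of 6675 regions called) and -1.56 without Raji replicate 3 (adjusted p = 0.0442).

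Away from both starts the lines differed in where H3K4me2 peaks lay, as the map of peaks by library shows. Peaks of the 18 libraries merged into 45 regions. A peak was found in at least 3 of the 6 libraries of each line in 3 of them, the starts of MYC and PVT1 and a region 152 to 158 kb after the MYC start inside PVT1. This is 6.67% of the regions, where 27.8% of all 29883 H3K4me2 regions met that rule. In 10 regions there was a peak in at least 3 Raji libraries and in none of the other lines, which is 22.2% against 12.1% over the genome. For REH there were 6, or 13.3% against 7.22%, and for NALM6 there were 0 against 1.73%. Of the 10 Raji regions, 3 were left without bryostatin replicate 1 and 3 without bryostatin replicate 2, when 8.01% of the regions of the genome met the rule in each case. There were 6 without untreated replicate 1, against 8.45% over the genome, and 7 without untreated replicate 3, against 11.1%. The REH count was 6 whichever single library was left out.

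**Figure D2:**
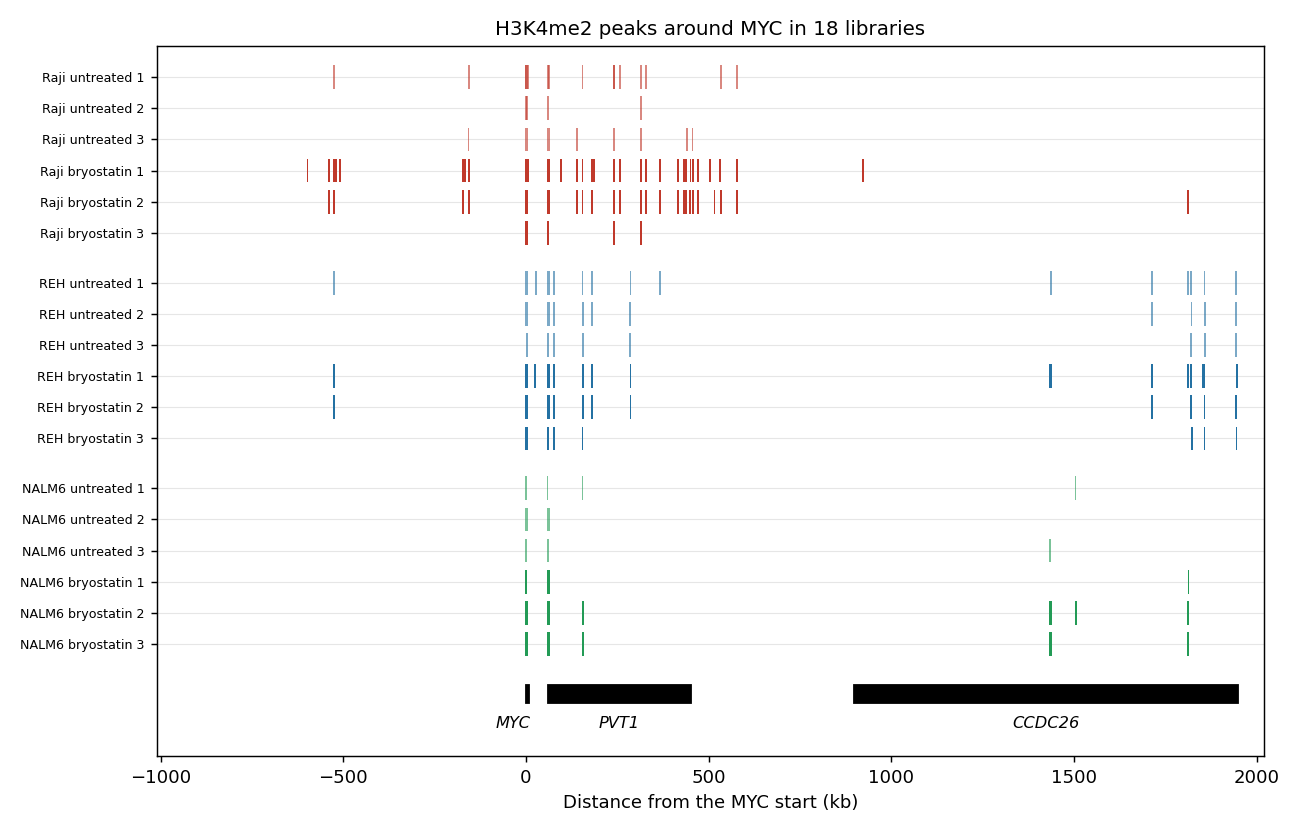
Positions of H3K4me2 peaks along the stretch (horizontal axis, distance from the MYC start in kb) in 18 libraries (rows), drawn at least 5 kb wide, with untreated libraries paler and the gene bodies in black. Raji peaks crowd over and just after PVT1, REH has peaks in PVT1 and near the start of CCDC26, and the fewest peaks stand in NALM6.

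The Raji regions lay along the body of PVT1 and in the gap beyond it, apart from 1 upstream of MYC, at -158 kb. The strongest, from 312.5 to 317.4 kb after the MYC start and over an annotated internal start of PVT1, was called in all 6 Raji libraries and in none of REH or NALM6. Its signal in multiples of the median region was 0.721, 0.752 and 0.563 untreated and 0.910, 1.01 and 0.730 with bryostatin. The next, from 239.8 to 243.4 kb, also lies over an annotated internal PVT1 start. It was called in 5 Raji libraries, at 0.418, 0 and 0.341 untreated and 0.446, 0.539 and 0.414 treated. Another, from 436.2 to 442.0 kb, touches no PVT1 exon and was called in 3 Raji libraries. H3K4me3 was called at the first of these in 2 Raji libraries, at 0.0143 and 0.0529, far below the level at the PVT1 start.

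REH used other sites. At 73.6 to 77.7 kb, inside PVT1, H3K4me2 was called in 6 of 6 REH libraries and in none of the other lines. The other REH regions lay at 284 kb in PVT1 and, 4 of them, in CCDC26. The strongest, from 1818 to 1823 kb over an annotated CCDC26 start, read 0.978, 0.746 and 0.598 untreated and 0.781, 0.872 and 0.376 with bryostatin. The next, from 1855 to 1859 kb within an intron, read 0.558, 0.571 and 0.431 untreated and 0.612, 0.558 and 0.459 treated. One more, from 1942 to 1947 kb near the main CCDC26 start, was also called in 6 of 6 REH libraries and in none of the other lines. H3K4me3 was almost absent from CCDC26: it was called near one of its starts in 1 REH, 2 NALM6 and 0 Raji libraries.

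These counts followed the peak threshold. With the strongest 7130 peaks of each library, the number in the library with fewest, there was 1 region for Raji, 1 for REH and 1 for NALM6. With only the peaks above each library's median signal there were 1, 3 and 0. The share over the genome is not given for these settings, so these counts are not set against it. The total number of peaks in the whole library ran from 10464 to 22540 in Raji, 11119 to 20347 in REH and 7130 to 12332 in NALM6.

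H3K4me2 was also summed over whole genes with 3 kb flanks, and the CCDC26 sum was highest in REH. PVT1 summed to 1.86 ± 0.723 multiples of the median region (SD, n = 3) in untreated Raji, 2.85 ± 0.551 in REH and 1.37 ± 0.280 in NALM6. REH lay above NALM6 in every library. The 2-sided exact permutation test gave p = 0.1, and no lower value is possible with 3 libraries a group. Taking the maximum signal instead of the sum, all 3 log2 ratios changed sign: NALM6 to REH from -1.06 to 0.51, Raji to REH from -0.61 to 0.46 and Raji to NALM6 from 0.44 to -0.044. The order of the lines for PVT1 is thus that of the sums only. For CCDC26 the untreated REH libraries read 2.66, 2.05 and 1.37, the NALM6 libraries 0.375, 0 and 0.324, and no untreated Raji library had a peak. Each REH library read above each library of the other lines. These sums hold called peaks only, so a 0 says that no peak was called, and they are given as a description. Without NALM6 replicate 1 the log2 ratio of NALM6 to REH was -1.07 for PVT1 and -3.65 for CCDC26. For CCDC26 it was -3.12 with all libraries and -0.97 with the maximum signal. For MYC itself the sums were 1.39 ± 0.148, 1.52 ± 0.0551 and 1.60 ± 0.108 in Raji, REH and NALM6 (exact permutation p between 0.2 and 0.3).

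**Figure D3:**
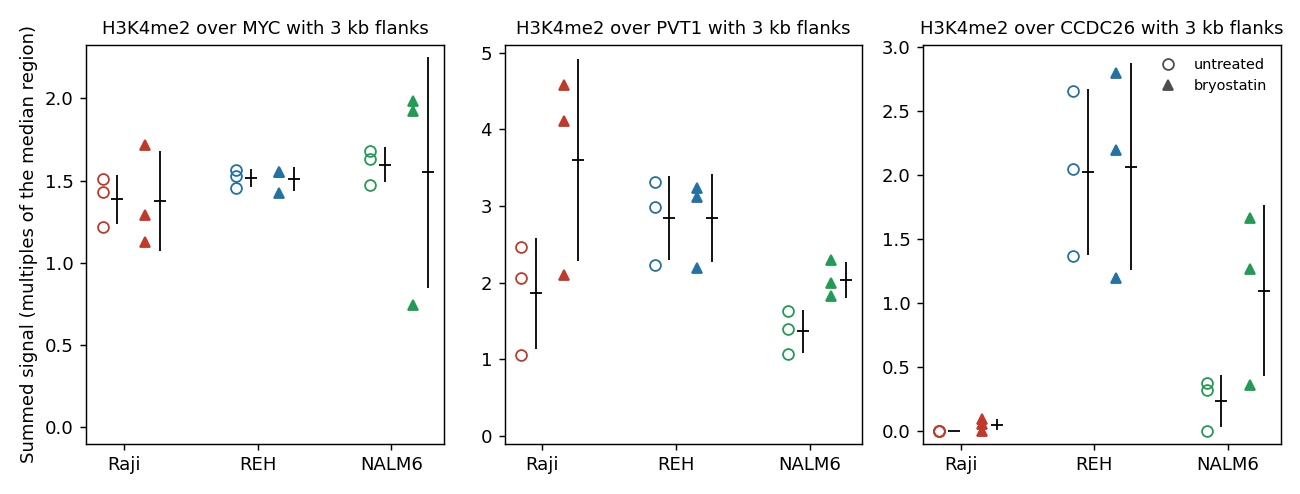
H3K4me2 summed over MYC, PVT1 and CCDC26 with 3 kb flanks (vertical axis, multiples of the median region of the library) by line. Open circles are untreated and filled triangles bryostatin-treated libraries, with black bars for the mean ± SD of 3 libraries. CCDC26 is at 0 in untreated Raji and between 1.37 and 2.66 in untreated REH, and the Raji circles and triangles for PVT1 overlap.

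With bryostatin the MYC start passed the threshold in none of the lines, for H3K4me3 or H3K4me2. For H3K4me3 the treated libraries read 1.74, 1.84 and 1.69 in Raji, above the 3 untreated ones. The log2 difference of 0.18 (SE 0.08) had a limma adjusted p of 0.878 in a fit that called 0.155% of 9040 regions, and it stayed between 0.15 and 0.44 over 15 alternatives with no call. In REH the treated libraries read 2.33, 2.46 and 2.38 and the difference was 0.03 (SE 0.06, adjusted p = 0.922, 1.67% of 7238 regions called). In NALM6 they read 2.27, 3.20 and 3.10 and the difference was -0.10 (SE 0.26, adjusted p = 1.00, 0% of 3838 regions called and 7 at an unadjusted p under 0.05). The NALM6 difference ranged from -0.28 to 0.09 when single libraries were left out and was -0.14 without replicate 1 of both groups, with no call.

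For H3K4me2 the MYC region read 1.65, 1.29 and 1.12 in treated Raji, 1.42, 1.55 and 1.55 in treated REH and 0.741, 1.99 and 1.92 in treated NALM6. The low NALM6 value is replicate 1, where 764 bp were called as a peak, and without replicate 1 of both groups the NALM6 difference was 0.32. The log2 differences were -0.07 (SE 0.16) in Raji, -0.04 (SE 0.08) in REH and -0.15 (SE 0.38) in NALM6, with limma adjusted p values of 0.923, 0.916 and 0.999. These fits called 0% of 9316 regions in Raji, with 626 at an unadjusted p under 0.05, 1.45% of 10791 in REH, and 0% of 4128 in NALM6, with 56 at an unadjusted p under 0.05. The response at the MYC start did not pass a test of the difference between any 2 lines for either mark, with limma interaction terms from -0.15 to 0.27 and adjusted p values of 0.975 and above. Those interaction fits called 0.0275% of regions for Raji against REH in H3K4me2, 0.0776% in H3K4me3 and 0% in the other 4.

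One region of the stretch passed the threshold with bryostatin. It was an H3K4me2 region in REH, from 152.3 to 158.2 kb after the MYC start (chr8:127887771-127893640), inside PVT1 and over an annotated internal start and exon of PVT1, where another gene (ENSG00000278324) is annotated as well. It read 0.508, 0.404 and 0.430 untreated and 0.845, 0.737 and 0.595 with bryostatin, and the groups did not overlap. The log2 difference was 0.66 (SE 0.13, limma adjusted p = 0.0167), as 1 of 7 regions tested in the stretch. Over all 10791 regions the fit called 1.45%, 153 higher and 4 lower with bryostatin. It was 0.59 with the maximum signal (adjusted p = 0.0332) and 0.30 with the mean signal per base (adjusted p = 0.861). Blocking on replicate number gave a limma adjusted p of 0.00272. Called length moved with it, from 4130, 2390 and 2770 bp to 5770, 2760 and 4470 bp. The difference was 0.59 without untreated replicate 2, 0.54 without bryostatin replicate 1 and 0.65 without bryostatin replicate 2, and the limma adjusted p was then 0.0950, 0.116 and 0.0714. With only peaks above the library's median signal the region was not tested. In Raji this region had a peak in 1 untreated and 2 treated libraries, and in NALM6 likewise.

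At the PVT1 start, H3K4me2 in Raji read 1.23, 1.32 and 0.961 with bryostatin, against 0.579, 0.310 and 1.13 without. The groups overlapped, and the log2 difference of 0.95 (SE 0.34) had a limma adjusted p of 0.706. In REH the difference was -0.16 (adjusted p = 0.721) and in NALM6 0.62 (adjusted p = 0.999), or 0.33 without replicate 1 of both groups (adjusted p = 0.441). H3K4me3 there differed by 0.14 in Raji (adjusted p = 0.950) and -0.03 in REH (adjusted p = 0.968). NALM6 bryostatin replicate 3 had no H3K4me3 peak at PVT1, and that library had 5.41 M mapped reads and 4389 peaks in all, the fewest of the H3K4me3 libraries.

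Peak numbers were higher in part of the treated Raji H3K4me2 libraries. The stretch held 16, 4 and 8 peaks in the untreated libraries and 31, 24 and 5 in the treated ones, so the groups overlapped. Over PVT1 the summed signal was 2.06, 1.06 and 2.47 untreated and 4.11, 4.58 and 2.11 treated, a ratio of means of 1.93 (exact permutation p = 0.2). The log2 ratio was 0.95 for the sum and 0.17 for the maximum signal. Of 33 regions, 8 had a peak in at least 2 treated and no untreated library, 24.2% against 13.4% of 22117 regions over the genome, and no region showed the reverse. All 8 came from bryostatin replicates 1 and 2: without either of them the count was 0, when 0.104% and 0.106% of regions over the genome met the rule, and without untreated replicate 1 it was 14, when 22.1% did. The treated libraries were deeper, at 15.6 M, 18.8 M and 16.1 M mapped reads, and with 10464 peaks taken from each library the count was 0 of 5, against 3.06% over the genome. The part of depth in these counts was not tested further.

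In NALM6, PVT1 summed to 1.40, 1.63 and 1.08 without and to 2.29, 2.00 and 1.83 with bryostatin, a ratio of means of 1.49 (exact permutation p = 0.1, the smallest possible). Its log2 ratio was 0.48 without bryostatin replicate 1 and 0.59 without untreated replicate 1. CCDC26 in NALM6 went from 0.375, 0 and 0.324 to 0.361, 1.66 and 1.27. These groups overlapped (exact permutation p = 0.2), and the sums, which hold called peaks only, are a description. The log2 ratio was 2.24 for the sum and 0.53 for the maximum signal. A CCDC26 region from 1810 to 1815 kb had a peak in all 3 treated and no untreated NALM6 library, at 0.361, 0.491 and 0.534. It was 1 of 2 such regions of 7 by the rule of at least 2 treated and no untreated libraries, which 7.45% of 13338 regions met over the genome. With equal numbers of peaks per library there was 1 such region, against 1.78% over the genome. There was also 1 without bryostatin replicate 2 (1.08% over the genome) and 1 without bryostatin replicate 3 (1.14%), and there were 3 without untreated replicate 1 (8.59%) or untreated replicate 3 (17.7%). In REH, PVT1 and CCDC26 sums had ratios of 1.00 and 1.02 (exact permutation p = 1.0 for both), and 0 of 18 regions met the rule against 0.475% over the genome. With the maximum signal the PVT1 log2 ratio was 0.55 in REH and 0.25 in NALM6.

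H3K27me3 peaks were few in REH, mostly upstream of MYC in NALM6 and spread over the stretch in Raji, and they were uneven between the libraries of a group. No region of the stretch was called in all 6 libraries of a line, so no test was run. REH had 1, 0 and 0 peaks in the untreated libraries and 0, 0 and 1 in the treated ones, and none of them lay over MYC, PVT1 or CCDC26. The REH libraries held 17141 to 48483 H3K27me3 peaks each over the genome. NALM6 had 1, 11 and 1 peaks untreated and 0, 30 and 35 treated. In NALM6, 60 of them lay upstream of MYC in 3 libraries. There 4 of the 95 merged regions had a peak in at least 3 NALM6 libraries and in no other line, against 1.76% of 132644 regions over the genome, and the longest ran from -51.7 to -35.9 kb of the MYC start. By the same rule Raji had 3, against 2.03%, and REH 0, against 6.65%. The NALM6 count was 0 when untreated replicate 2 was left out, when 0.511% of regions over the genome met the rule. It was also 0 without treated replicate 2 (0.649% over the genome) or treated replicate 3 (0.542%). The Raji count was 1 without untreated replicate 2, the library that went against its label, when 0.228% of regions over the genome met the rule. It was also 1 when the untreated replicate 3 (0.277% over the genome) or the treated replicate 3 (0.228%) was dropped. Raji had 0, 7 and 43 peaks untreated and 1, 0 and 30 treated. Of its peaks 20 lay upstream of MYC, 19 between PVT1 and CCDC26, 17 over CCDC26 and 20 beyond it, and the other 5 lay over MYC, at the PVT1 start or between them.

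**Figure D4:**
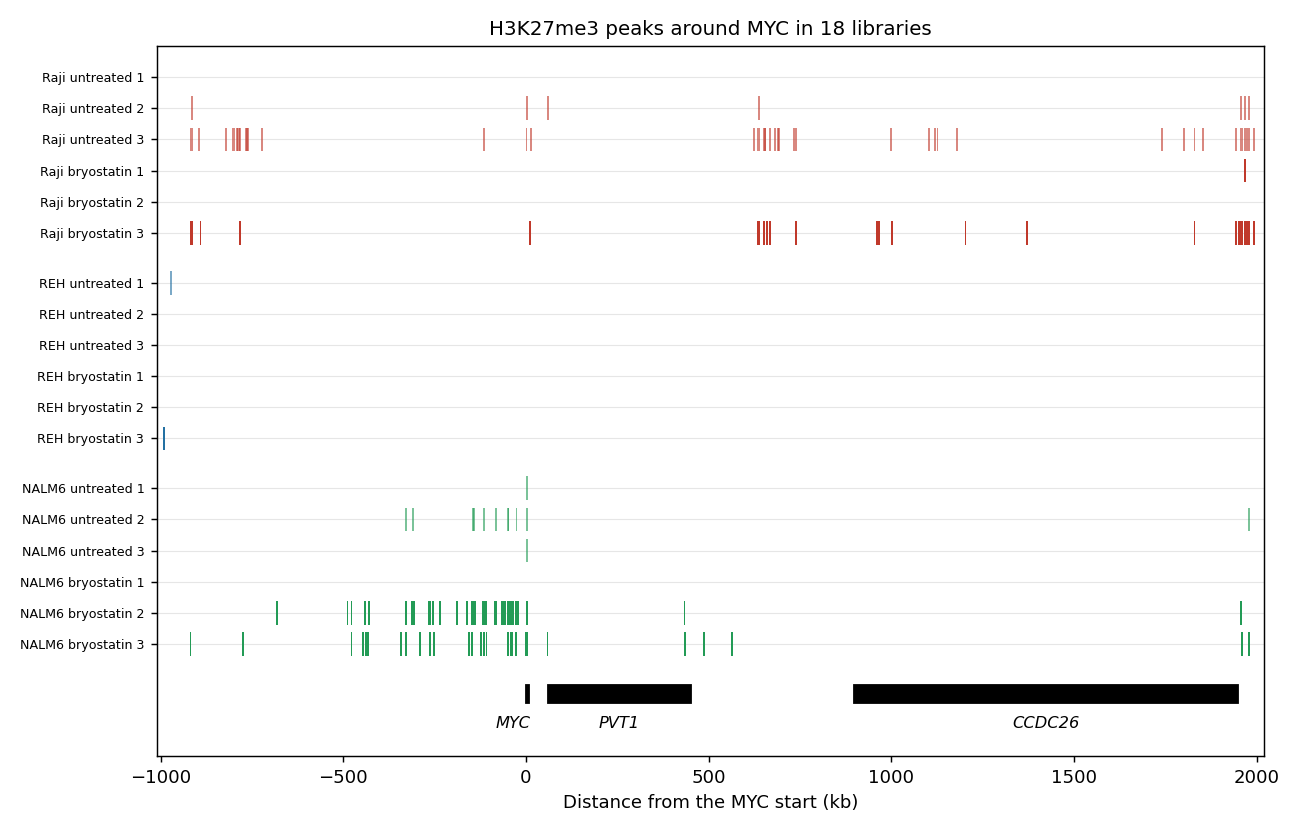
Positions of H3K27me3 peaks along the stretch (horizontal axis, distance from the MYC start in kb) in 18 libraries (rows), drawn at least 5 kb wide, with untreated libraries paler and the gene bodies in black. NALM6 peaks lie mostly before MYC, Raji peaks lie mostly upstream of MYC, between PVT1 and CCDC26, over CCDC26 and beyond it, with 5 from MYC to the PVT1 start, and REH has 2 peaks in all.

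An H3K27me3 peak stood over the MYC start region itself in 5 of 6 NALM6 libraries, in 2 of 6 Raji libraries and in 0 of 6 REH libraries. In NALM6 it covered 399, 4630 and 3960 bp untreated and 0, 5350 and 2630 bp treated, the same ground as the H3K4me3 region. In NALM6 libraries the share of the 3505 common H3K4me3 regions with an H3K27me3 peak was 0.143%, 2.17% and 1.26% untreated and 0.456%, 2.57% and 14.4% treated. In Raji the 2 peaks were in untreated replicates 2 and 3, and replicate 2 is the library that covered 99.6% of such regions, so without it 1 Raji library of 5 had a peak over MYC. The H3K27me3 peak at the PVT1 start in Raji was found in that library only, and 1 NALM6 library, bryostatin replicate 3, had one as well. No treated Raji library had one at MYC. In those 3 libraries the total was 3424, 2778 and 101702 peaks, and the last of them, replicate 3, covered 11.8% of the common H3K4me3 regions. Whether the peaks over MYC in these libraries reflect H3K27me3 itself was not tested. Both marks on the same nucleosomes and each mark on different alleles or cells cannot be told apart in such libraries either.

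The MYC network was looked at through a list of 38 genes, namely dimer partners and antagonists, paralogs, cofactors, turnover genes and targets. With bryostatin none of the 32 and 35 tested in Raji (H3K4me2 and H3K4me3) and none of the 18 and 22 in NALM6 passed, nor did any of 35 in REH for H3K4me2. In REH H3K4me3, 0 of 32 rose and 2 fell. They were MXD3, which competes with MYC for its partner MAX, at -0.45 (SE 0.07, limma adjusted p = 0.00423), and MLXIP, a glucose-sensing partner of MLX, at -0.41 (SE 0.07, adjusted p = 0.0139). Neither passed with the mean signal per base (adjusted p = 0.548 and 0.956). The same fit called 1.67% of all 7238 regions, 59 higher and 62 lower. The median over the 32 was -0.08, beside -0.0011 over all regions tested.

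Between untreated Raji and REH, 8 of 32 list genes were higher and 11 lower in Raji for H3K4me3, and 1 was higher and 15 lower for H3K4me2. Over all regions these fits called 51.3% for H3K4me3, 1604 higher and 1851 lower, and 46.8% for H3K4me2, 1902 higher and 1842 lower. The median was -0.09 for H3K4me3, beside -0.02 over all regions, and -0.30 for H3K4me2, beside 0.0025. With the mean signal per base 6 and 8 genes passed. By role, of the dimer partners and antagonists, MAX, the shared partner, was lower in Raji at -0.46 for H3K4me3 and -0.41 for H3K4me2. MXD3 and MNT, which compete with MYC for MAX, were at -0.96 and -0.46 for H3K4me3 and at -0.27 and -1.28 for H3K4me2. MXD1, of the same kind, was at -1.10 for H3K4me3, and MLXIP was at -0.67 for H3K4me3 and lower for H3K4me2 as well. MYCL, a paralog of MYC, was lower in Raji, at -1.70 and -0.63. Of the cofactors, ZBTB17, the MYC partner MIZ1, was higher in Raji for both marks, at 0.68 and 1.55. TRRAP, a scaffold of histone acetyltransferase complexes, was higher at 0.36 for H3K4me3. The ATPase RUVBL2 went opposite ways, at 0.33 for H3K4me3 and -0.60 for H3K4me2, while its partner RUVBL1 was at -0.39 for H3K4me3 and the acetyltransferase KAT5 at -0.33 for H3K4me2. Of the turnover genes, USP28, which removes ubiquitin from MYC, was lower at -0.88 and -1.01, and the ubiquitin ligase subunit SKP2 at -0.56 and -0.36, whereas the kinase GSK3B was higher at 0.51 for H3K4me3. Of the targets, ODC1, the first enzyme of polyamine synthesis, went opposite ways, at 0.82 for H3K4me3 and -0.61 for H3K4me2. Nucleolin (NCL) was lower in Raji for both, at -0.52 and -0.79, as was PTMA, at -0.78 and -0.90. The translation factor EIF4E and the cell-cycle kinase CDK4 were higher for H3K4me3, at 0.58 and 0.48. LDHA, which makes lactate, and TERT, the catalytic subunit of telomerase, were lower for H3K4me2, at -1.48 and -1.32. The limma adjusted p values of the genes past the threshold ran from 1.26e-05 to 0.0280 for H3K4me3 and from 4.86e-07 to 0.0425 for H3K4me2. Among them, MXD1, MXD3, MYCL, TRRAP, CDK4 and PTMA also passed with the mean signal per base for H3K4me3, and MNT, MLXIP, MYCL, ZBTB17, ODC1, LDHA and PTMA for H3K4me2.

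Raji against NALM6 gave 2 higher and 3 lower of 27 for H3K4me3 and 1 and 1 of 20 for H3K4me2, where 20.2% and 18.9% of all regions were called. For H3K4me3 ZBTB17 and CDK4 were higher in Raji, at 0.86 and 0.63, and MNT, MLXIP and PTMA lower, at -0.78, -0.99 and -1.15. For H3K4me2 ZBTB17 was higher at 1.16 and MNT lower at -0.79 (limma adjusted p from 0.00443 to 0.0288 for all of these). Only ZBTB17 and PTMA, for H3K4me3, passed with the mean signal per base as well. None of 26 and 21 passed between NALM6 and REH, where 7.15% and 11.4% of all regions were called.

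The genes whose H3K4me3 level at the start followed that of MYC most closely over the 18 libraries were, of 4463 compared, ASAH1 (Pearson r = 0.955), GPR155 (0.939), INKA1 (0.933), UBA7 (0.933) and TRIB3 (0.929). These values describe the libraries, which share lines and scaling.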

How the data were processed

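Per the labels and the study's methods, the authors aligned Cut&Tag reads to hg38 and called stringent SEACR peaks in each library; the submitters' notes also list bcl2fastq, Trim Galore, Bowtie2 and DESeq2. The deposited values are the signal of each peak, as total and maximum coverage, in RPKM over 10 bp bins in 48 libraries. The step between values gave the mapped reads. The IgG libraries and the control used for peak calling were not used here or not given in the sources used here. The members and gene lists were chosen with earlier results of these data known.

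Genes came from GENCODE 44. Peaks that overlapped by at least 1 bp were merged. The log2 total signal of regions called in all 6 libraries of a comparison was centred on each library's median and tested with limma 3.58.1 (R 4.3.3, trended eBayes, Benjamini-Hochberg threshold 0.05 over all regions), after a check on simulated data. Gene sums with 3 kb flanks were compared by exact permutation (SciPy 1.17.1). Named were MYC, PVT1, CCDC26, genes starting in regions of the stretch past the threshold, list genes past it (up to 5 a role) and the 5 genes most like MYC. A replicate number was taken to pair libraries where every same-numbered correlation was over 0.1. This held for bryostatin in REH (0.131 to 0.311 over both marks), in NALM6 (0.402 to 0.676) and in Raji H3K4me3 (0.482 to 0.54). In NALM6, replicates 2 and 3 also correlated across numbers, at 0.406 and 0.354 for H3K4me2 and 0.507 and 0.565 for H3K4me3. The rule therefore does not show that equal numbers are pairs in NALM6. Alternatives covered the signal measure, centring, peak threshold, overlap, replicate block and each replicate left out.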

Additional observations from a re-analysis of the deposited data

How the results depend on the processing

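Of 933 alternative values, 833 were taken as kept, and for the MYC start 170 of 206. A difference or sum was kept if it held its direction and side of the threshold or stayed within the replicate spread. A count of regions was kept if it was equal or close to the main count. Thus 7 H3K4me2 regions of Raji alone in place of 10 were taken as kept, and 6 in place of 10 were not. Leaving out centring shifted all differences of a comparison by 1.18 and 1.17 for Raji minus NALM6 (H3K4me2 and H3K4me3), by -1.47 and -1.35 for NALM6 minus REH and by -0.25 to 0.26 in the other comparisons of these marks, and its values carry that shift. The cause of the changes was not tested. The part of depth was not tested either, and a missing peak in a shallow library does not show that the mark is absent. Equal peak numbers, leaving out NALM6 replicate 1 of both groups and leaving out single libraries for regions of 1 line, and all alternatives at the PVT1 start, were chosen after seeing the data.

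At the MYC start, bryostatin in Raji H3K4me2 gave 0.047 with the maximum signal, 0.23 with the mean signal per base, 0.17 without centring, 0.13 with peaks above the library median and -0.24 to 0.034 leaving out single libraries. In REH H3K4me2 it gave 0.013 with the mean signal and -0.093 to 0.0025 leaving out single libraries, and in REH H3K4me3 -0.091 with the maximum and -0.062 with the mean. In NALM6 H3K4me2 it gave 0.076 with the maximum, 0.34 with the mean, 0.32 without replicate 1 of both groups and -0.39 to 0.29 leaving out single libraries. In NALM6 H3K4me3 it gave 0.0087, 0.11 and, without centring, 0.00023, and -0.28 to 0.086 leaving out single libraries. Between lines, Raji minus REH H3K4me2 was -0.66 with peaks above the library median. Raji minus NALM6 was 0.91 without centring in H3K4me2, and in H3K4me3 -0.77 with the maximum, -0.64 with the mean, -0.89 with quantile normalization and 0.14 without centring. NALM6 minus REH was -1.39 without centring in H3K4me2, and in H3K4me3 -0.075 with the mean, -0.92 without centring and 0.27 to 0.63 leaving out single libraries. The difference in response with the maximum and the mean was 0.077 and 0.20 for Raji minus REH H3K4me2, -0.037 and -0.14 for Raji minus NALM6 H3K4me2, 0.10 and 0.30 for NALM6 minus REH H3K4me2 and 0.10 and 0.17 for NALM6 minus REH H3K4me3.

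The count of regions past the threshold for bryostatin in REH H3K4me2 was 0 with the mean signal and with peaks above the library median, and 0 to 1 leaving out single libraries. For Raji against NALM6 it was 1 with the maximum signal and 0 to 1 leaving out single libraries in H3K4me2, and in H3K4me3 0 with the maximum, the mean, no centring and quantile normalization. Leaving out single libraries it was 1 to 2 for Raji against REH H3K4me3 and 0 to 2 for NALM6 against REH H3K4me3. H3K4me2 regions of 1 line alone numbered 1 in Raji and 3 in REH with peaks above the library median, and 1 in Raji, 1 in REH and 1 in NALM6 with equal peak numbers, and H3K4me3 regions of all lines 1 under both. These counts are given without a share over the genome and are not set against it. Leaving out single libraries, H3K4me2 regions numbered 3 to 10 in Raji alone, 0 to 1 in NALM6 alone and 2 to 3 in all lines, and H3K27me3 regions 1 to 3 in Raji alone and 0 to 5 in NALM6 alone. In that order the H3K4me2 shares over the genome ran from 8.01% to 14.2%, 1.3% to 2.06% and 24.8% to 28.9%. The H3K27me3 shares ran from 0.228% to 2.65% and 0.511% to 2.38%. With peaks above the library median, regions with bryostatin alone numbered 1 of 6 in Raji (9.08% over the genome) and 0 of 2 in NALM6 (7.01%). With equal numbers they were 0 of 5 in Raji (3.06%) and 1 of 6 in NALM6 (1.78%). Leaving out single libraries they numbered 0 to 14 in Raji, 0 to 1 in REH and 1 to 3 in NALM6. The shares over the genome then ran from 0.104% to 22.1%, from 0.0642% to 3.25% and from 1.08% to 17.7%.

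For gene sums the log2 ratios were, with the maximum signal, 0.23 for MYC H3K4me2 in NALM6 against REH, and for PVT1 H3K4me2 0.17, 0.55 and 0.25 for bryostatin in Raji, REH and NALM6, 0.46 for Raji against REH, -0.044 for Raji against NALM6 and 0.51 for NALM6 against REH. They were 0.53 for CCDC26 H3K4me2 with bryostatin in NALM6, -0.97 in NALM6 against REH, and for MYC H3K4me3 0.27 and -0.090 for bryostatin in Raji and REH and -0.51 for Raji against REH. Without centring MYC H3K4me2 gave 0.50 for bryostatin in NALM6, -0.44 for Raji against REH, 0.034 for Raji against NALM6 and -0.48 for NALM6 against REH. PVT1 and CCDC26 H3K4me2 in NALM6 against REH gave -1.59 and -4.28, and CCDC26 with bryostatin in NALM6 3.46. MYC H3K4me3 gave 0.39 for bryostatin in Raji and -0.74 for Raji against REH, and PVT1 H3K4me3 0.34 for bryostatin in Raji.

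With the replicate block, 30 of 30 values kept their call, among them -0.60 for Raji minus REH H3K4me3 at MYC. The numbers did not pair the libraries in Raji H3K4me2 (correlations -0.308 to 0.417) or between lines.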
